A study of Papio anubis with 12 samples.

Results

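Potassium channel subunits are described here in the precentral gyrus, the motor cortex, of 12 baboon neonates (Papio anubis) fed 1 of 3 formulas. A probe set was a member when its single annotated symbol begins with a KCN prefix of a voltage-gated, calcium-activated, sodium-activated, inward rectifier or two-pore potassium channel family. The auxiliary subunits with the prefixes KCNAB, KCNE, KCNIP and KCNMB were included. Antisense and overlapping transcripts were left out, which removed 14 probe sets of 10 genes, and 4 probe sets with several symbols were not used. The rule gave 168 of 54613 probe sets and 85 of 19775 named genes. The brightest probe set stood for each gene, 37 genes had only 1 probe set, and 48 had between 2 and 6. Of the 85 symbols, 84 name a protein-coding gene of the baboon, and KCNQ1DN, a non-coding neighbour of KCNQ1, does not. KCNQ1DN was kept because the rule on symbols takes it in, but it encodes no channel subunit.

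Each formula was given to 4 animals, assigned at random, and feeding lasted 12 weeks. Formula C held no docosahexaenoic acid (DHA) and no arachidonic acid (ARA), formula L held 0.33% DHA with 0.67% ARA, and formula L3 held 1.00% DHA with 0.67% ARA. The animals were 83 to 87 days old at necropsy, and 2 of the C, 1 of the L and 0 of the L3 animals were male. The RNA of each animal's tissue was measured on its own Affymetrix HG-U133 Plus 2.0 array, whose probes were designed on human transcripts. Values are log2(signal + 16) after quantile normalization, so a difference of 1 is a 2-fold difference. A comparison such as L3/C is the mean of the first group minus the mean of the second.

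Potassium channels let potassium leave or enter a cell and so set the resting potential, end each action potential and limit repetitive firing. Voltage-gated subunits assemble as tetramers with auxiliary proteins, inward rectifiers and two-pore channels carry current near rest, and BK and SK channels open with intracellular calcium. DHA is a long-chain n-3 fatty acid that accumulates in neuronal membranes, in which these channels sit. The question of the design is whether transcripts differed between animals fed both fatty acids and animals fed neither (L/C and L3/C), and between the higher and the lower DHA at equal ARA (L3/L).

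Cortical tissue was recognisable on all arrays, with markers of neurons (10 of 10 listed genes measured), astrocytes (6 of 6) and oligodendrocytes (5 of 6) at signals of 133.2 or more on each array. The arrays were not alike. The mean log2 signal of the 9 spike-in probe sets, which are added in fixed amounts, lay from 13.1 to 13.9 on C replicate 2, L replicate 1 and L3 replicates 1 to 3, and from 11.04 to 12.6 on the others. The log2 ratio of the 3' to the 5' ACTB probe sets, a sign of RNA quality, ran from -0.15 to 3.59 on 11 arrays and was 6.18 on L3 replicate 1. In each formula this ratio fell in order from replicate 1 to replicate 4, and the main fit has no term for it. The 85 members deviated from their own 12-array means with an SD of 0.80 to 1.03 on L replicate 1 and L3 replicates 1 to 3, and of 0.44 to 0.69 on the other 8 arrays. This SD was higher on all 4 L3 arrays than on all 4 C arrays (two-sided exact permutation p = 0.0286, n = 4 and 4, the smallest p this design allows). The same SD was not computed over all genes, so it is not shown to be particular to the members. The mean deviation of the members was lowest on L3 replicate 2 (-0.30) and L replicate 1 (-0.17) and lay between -0.04 and 0.12 elsewhere. The part of these array differences in the results was not tested beyond the fits with a spike-in or an RNA quality covariate and without each array.

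**Figure D1:**
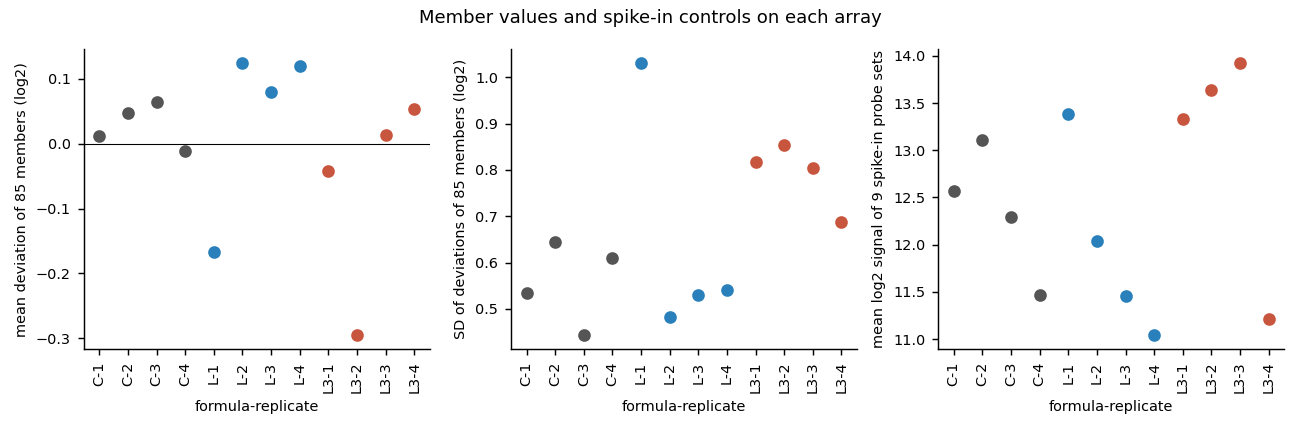
Each point is 1 array, named by formula and replicate. The left panel plots the mean and the middle panel the SD of the log2 deviations of the 85 members from their 12-array means, and the right panel the mean log2 signal of the 9 spike-in probe sets. L replicate 1 and L3 replicates 1 to 3 have SDs of 0.80 to 1.03, and L3 replicate 2 has the lowest mean deviation, -0.30.

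Most subunits were measurable at the level of a typical probe set or above it. The mean of the brightest probe set lay above the median of all probe sets (7.14 on the log2 scale) for 59 of 85 members and at or below it for 26. In every one of the 12 arrays, 31 members lay above the array's own median and 7 below it, and 47 lay on both sides. All 4 Kv channel-interacting proteins (KChIPs), which are calcium-binding partners of Kv4 channels, lay above the median on all 12 arrays, as did 5 of 13 inward rectifier subunits, 3 of 5 BK subunits and both sodium-activated subunits. Among the 14 two-pore subunits, KCNK1 alone lay above it on all 12. Mean signals of members ran from 11.1 (KCNG2) to 2608 (KCNMB4, a neuronal beta subunit of BK channels). Signals of different probe sets also depend on their probes, so these levels are not an order of transcript abundance. The median is a yardstick and not a detection limit.

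No potassium channel gene differed between formulas at an adjusted p under 0.05. With limma and Benjamini-Hochberg adjustment over all probe sets, the lowest adjusted p of a member was 0.99998 in L/C, 0.99917 in L3/C and 0.89115 in L3/L. At an unadjusted p under 0.05, 0 of 85 members passed in L/C, where 2.42% of all probe sets and 2.11% of the brightest probe sets of all genes did. In L3/C, 2 members (2.35%) passed, against 4.26% of all probe sets and 3.88% of all genes. In L3/L, 2 members (2.35%) passed, against 5.4% and 5.06%. Over the 3 formulas together, 0 of 85 members passed limma's F test at an unadjusted p under 0.05. Among all probe sets 3.67% did, and among all genes 3.24%. Of all 168 member probe sets, 1 was at an unadjusted p under 0.05 over the 3 formulas, and 0 passed after adjustment. The study's own multiclass test used other values than the deposited ones and was not rerun. KCNK3 and KCNH7, which the study names, are described below. The shares of members were thus at or below the shares of all genes. In tissue, fewer cells of a type and less RNA per cell cannot be told apart.

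The members were spread on both sides of 0. In L/C, 39 members were higher and 46 lower with a median of -0.03, the same as the median of all genes. In L3/C, 33 were higher and 52 lower with a median of -0.10, beside -0.03 for all genes. In L3/L, 32 were higher and 53 lower with a median of -0.10, beside 0.0002 for all genes. Where each array was centred on its median in place of quantile normalization, the medians of the members were -0.25 in L3/C and -0.27 in L3/L, and those of all genes moved with them to -0.18 and -0.18.

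What the data bound is the size of a difference. Standard errors of the differences had a median of 0.45 for members and 0.46 for all genes. The 95% interval lay wholly within a 2-fold difference for 29 members in L/C, 24 in L3/C and 26 in L3/L, which is 34.1%, 28.2% and 30.6% of them. Among all genes these shares were 30.9%, 28.5% and 27%. The estimate itself was below 2-fold for 84, 80 and 84 of the 85 members. The exceptions were KCNK5 in L/C, KCNC2, KCNK2, KCNK9, KCNK12 and KCNQ1DN in L3/C, and KCNK13 in L3/L. For the 59 brighter members the median SD between arrays of a group was 0.53, and for the 26 dimmer ones 0.78.

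**Figure D2:**
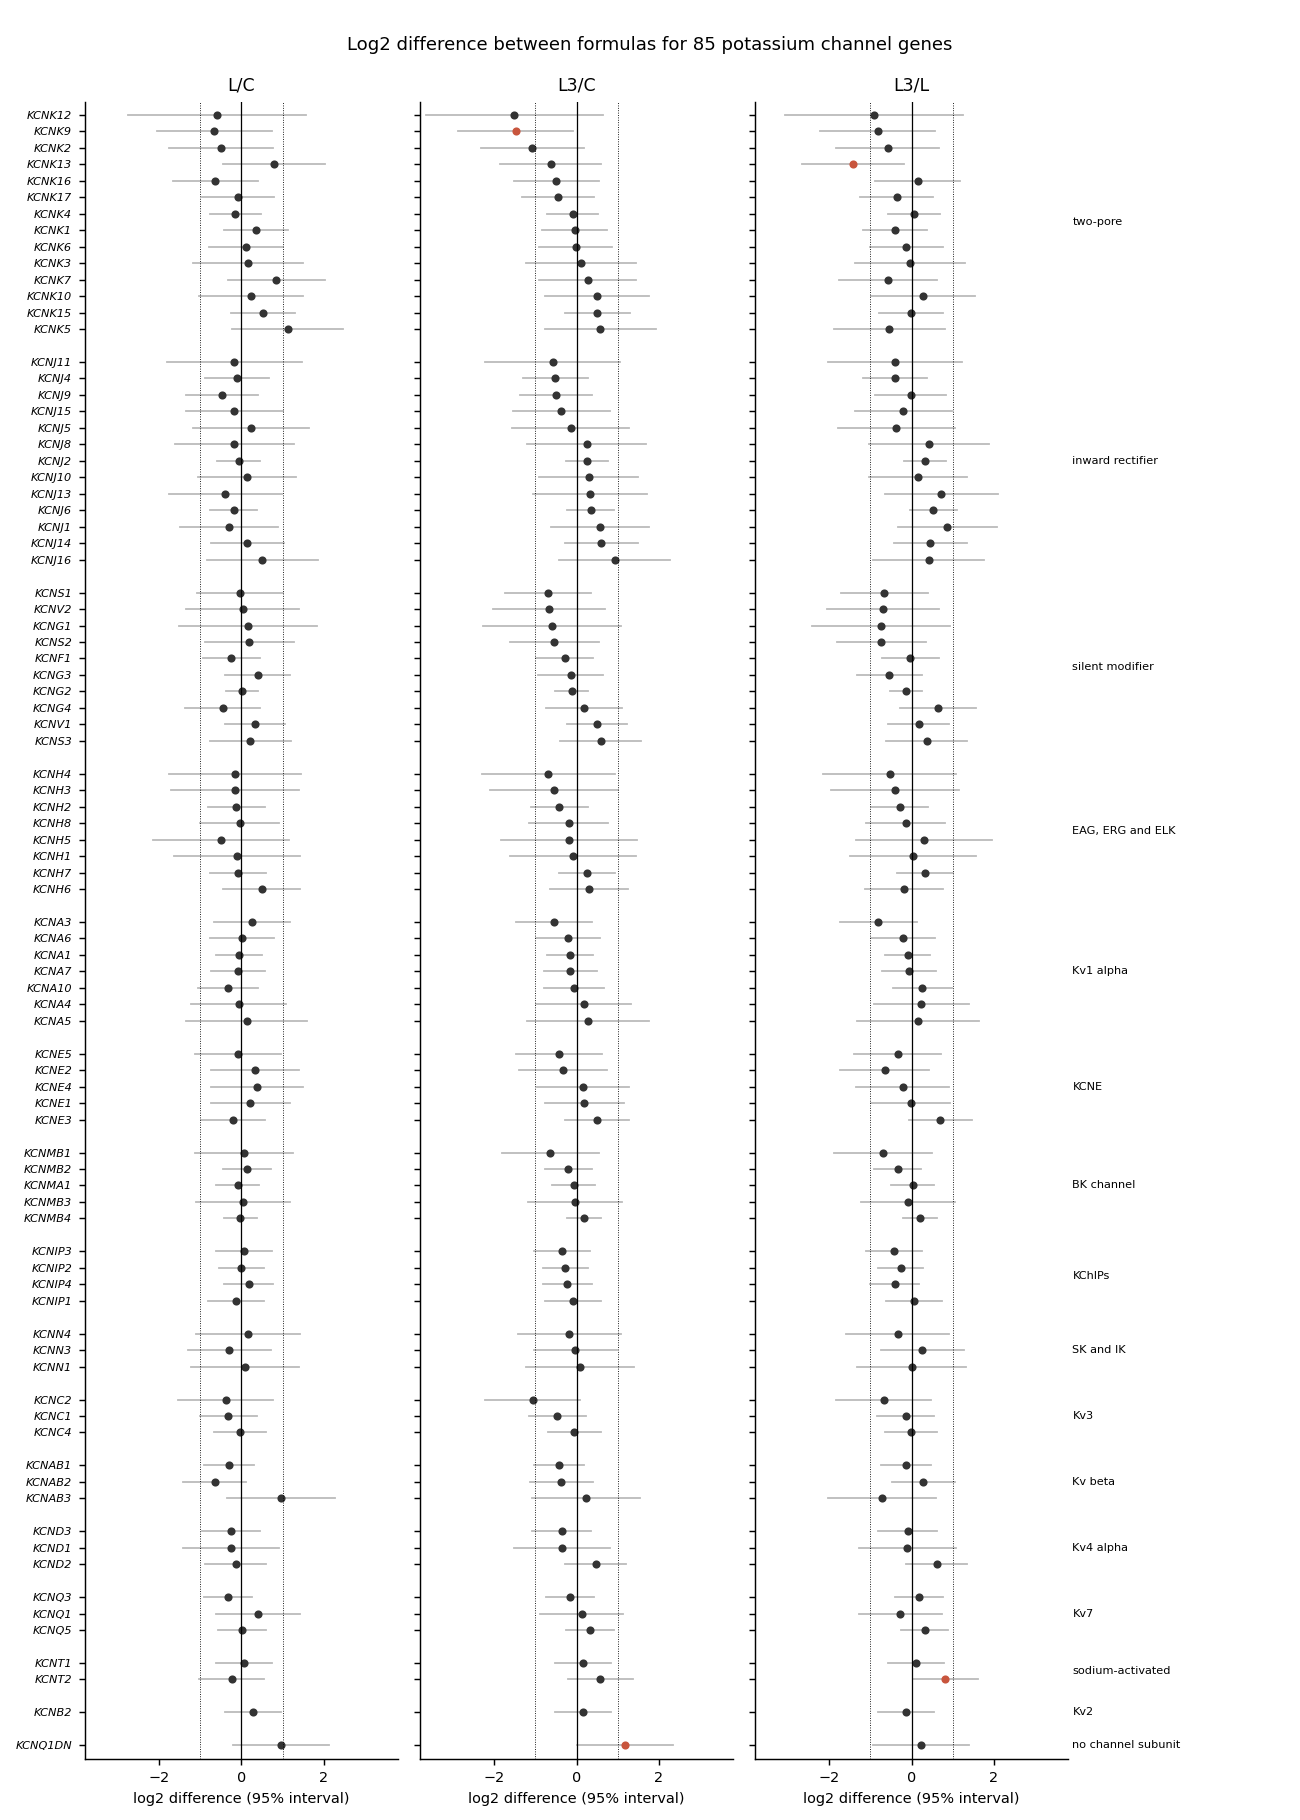
Log2 difference (points) and 95% interval (lines) for each of the 85 genes in L/C, L3/C and L3/L, ordered by subfamily. Dotted lines mark a 2-fold difference and red points the genes at an unadjusted p under 0.05, which are 0 in L/C, 2 in L3/C and 2 in L3/L. In most rows the interval crosses 0, and 24 to 29 intervals per comparison lie wholly between the dotted lines.

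Kv1 channels are low-threshold delayed rectifiers of axons, and KCNA1 is their best known member in motor circuits. KCNA1 read 10.35, 10.67, 10.50 and 10.14 on the C arrays, 10.63, 10.38, 10.24 and 10.19 on the L arrays, and 11.04, 9.93, 9.85 and 10.23 on the L3 arrays. The groups overlapped, and the differences were -0.05 in L/C (95% interval -0.61 to 0.50) and -0.15 in L3/C (-0.71 to 0.40). KCNA4, a fast-inactivating Kv1 subunit, differed by -0.06 in L/C. Its L3/C difference was 0.18, with a wide interval from -0.98 to 1.33. KCNA3, known best from lymphocytes and microglia, had the smallest p of the Kv1 subunits in L3/C, at -0.55 (-1.47 to 0.38), with L3 arrays from 7.28 to 9.83. KCNA10, a dim member that ran from 5.07 to 6.29 over the 12 arrays, had a difference of -0.33 in L/C. Of 7 Kv1 subunits, 3 were higher in L/C, as against 2 for L3/C.

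The cytoplasmic Kv beta subunits bind Kv1 channels and speed their inactivation. KCNAB1 was tight on the C arrays, with values of 10.26, 10.32, 10.21 and 10.18. It read 9.88, 10.35, 9.87 and 9.66 on the L arrays and 9.90, 10.48, 8.96 and 9.90 on the L3 arrays. In L and in L3 alike, 1 array exceeded all C arrays and 3 lay below them, and the difference was -0.30 in L/C (-0.91 to 0.30) and -0.43 in L3/C (-1.04 to 0.17). KCNAB2 differed by -0.64 in L/C (-1.41 to 0.12) and -0.36 in L3/C, and its second probe set gave 0.76 and -0.72. KCNAB3, named after its values were seen, lay on the other side, at 0.96 in L/C (-0.35 to 2.28) and 0.24 in L3/C. None of the 3 passed the test, with exact permutation p values (two-sided, n = 4 and 4) of 0.143 for KCNAB1 in both comparisons.

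Kv4 channels carry the A-type current of dendrites, and KChIPs set their surface number and gating. At their brightest probe sets all 4 KChIPs were lower in L3/C, with a median of -0.25 and a range of -0.36 to -0.08, and none was at an unadjusted p under 0.05. All 4 were also lower without further normalization (median -0.40) and with centred arrays (-0.57). The L3/C median of the 10 neuron markers moved the same way, from -0.03 to -0.25 without further normalization and -0.42 with centred arrays. For all genes these medians were -0.03, -0.01 and -0.18. KCNIP4 read 10.66, 10.89, 10.64 and 10.37 on C, 11.40, 10.43, 10.69 and 10.77 on L, and 11.06, 9.76, 10.20 and 10.63 on L3. Only L3 replicates 2 and 3 lay below the C range. The L3/C difference of KCNIP4 was -0.23 (-0.82 to 0.36), that of KCNIP2 -0.27 (-0.82 to 0.28) and that of KCNIP3 -0.36 (-1.04 to 0.32). Other probe sets differed in sign, from -0.36 to 0.79 over the 5 of KCNIP3 and from -0.63 to 0.06 over the 4 of KCNIP2, and the mean over probe sets of KCNIP3 was 0.24. In L/C 2 KChIPs were higher and 2 lower at the brightest probe set. Of the pore-forming partners, KCND2 differed by -0.14 in L/C and 0.47 in L3/C (-0.27 to 1.20), and KCND3 by -0.26 and -0.36. Thus KCND2 lay above and KCND3 below the C mean in L3, both within intervals that cross 0.

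Kv3 channels repolarize fast-spiking interneurons. At their brightest probe sets all 3 measured Kv3 genes were lower in each of the 3 comparisons under each of the 3 scalings, with a median of -0.47 in L3/C, and 0 of 3 were at an unadjusted p under 0.05. KCNC2 read 7.14, 7.00, 7.48 and 7.51 on C, 8.10, 7.39, 6.42 and 5.69 on L, and 6.63, 5.65, 6.50 and 6.12 on L3. Every L3 array of KCNC2 lay below every C array, while the L arrays spanned both. The L3/C difference was -1.06 (-2.21 to 0.09), with an exact permutation p of 0.0286 (two-sided, n = 4 and 4) and a limma adjusted p of 0.99917. Among all genes 1.21% were lower with no overlap in L3/C, so 1 of 85 members (1.18%) was near the background. The second probe set of KCNC2 gave 0.15 in L/C and -0.47 in L3/C. KCNC1 read 9.00, 8.64, 9.49 and 9.14 on C and 8.36, 8.94, 8.63 and 8.46 on L3, with 8.10, 9.40, 8.56 and 8.92 on L. Its L3/C difference was -0.47 (-1.16 to 0.23), with an exact permutation p of 0.0571 (two-sided, n = 4 and 4). KCNC4 gave -0.03 in L/C and -0.05 in L3/C (-0.68 to 0.58), while its 3 probe sets ran from -0.38 to 0.28 in L3/C and from -0.16 to 0.26 in L/C. The 6 interneuron markers had a median of -0.09 in L/C, with 2 higher, and of -0.11 in L3/C, with 1 higher, at 0.56. Of the 6, 1 was at an unadjusted p under 0.05 in L3/C, lower (16.7%, beside 3.88% of all genes). The L3/C medians without further normalization and with centred arrays were -0.49 and -0.66 for Kv3 genes and -0.35 and -0.52 for these markers. In L3/L the median of the markers was -0.02, with 3 higher and 3 lower. PVALB, which marks interneurons that use these channels, gave -0.38 in L/C, the lowest of the 6, and -0.27 in L3/C. SST, a marker of another interneuron class, gave -0.48 in L3/C. The part of interneuron number in the Kv3 values was not tested.

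Kv7 channels carry the M-current, a slow brake on repetitive firing, and KCNQ3 and KCNQ5 are its cortical subunits. KCNQ3 read 11.81, 11.94, 11.15 and 10.87 on C, 11.76, 10.90, 10.99 and 10.80 on L, and 11.75, 11.24, 11.14 and 11.01 on L3. The groups overlapped in full, with L/C at -0.33 (-0.92 to 0.25) and -0.16 in L3/C (-0.74 to 0.43). KCNQ5 differed by 0.01 in L/C and 0.33 in L3/C (-0.25 to 0.90), where L3 replicates 1 and 2 read 10.49 and 10.54 and the other two 9.67 and 9.48. KCNB2, the 1 measured Kv2 subunit, differed by 0.28 in L/C and 0.15 in L3/C.

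Among the silent modifiers, which form channels only with Kv2 subunits, 7 of 10 were higher in L/C (median 0.09), against 3 of 10 for L3/C (median -0.21). The L/C count was 5 of 10 without further normalization. KCNG3 had the smallest p in L/C, at 0.40 (-0.40 to 1.19), and KCNV1 in L3/C, at 0.50 (-0.23 to 1.23). Of the 8 subunits of the EAG, ERG and ELK families, which include the pacemaking and repolarizing ERG channels, 7 were lower in L/C with a median of -0.12, and 6 were lower in L3/C with a median of -0.19. KCNH2, the ERG subunit also known from the heart, read 9.58, 9.39, 8.78 and 8.95 on C, 9.91, 8.87, 8.70 and 8.72 on L, and 9.10, 8.49, 8.72 and 8.71 on L3. L replicate 1 stood above all C arrays, L3 replicate 1 lay within the C range and the other 3 L3 arrays below it, with a difference of -0.42 in L3/C (-1.11 to 0.27). KCNH6 had the smallest p of this family in L/C, at 0.49 (-0.45 to 1.43). Of the single-pass KCNE subunits, KCNE4 differed by 0.37 in L/C and KCNE3 by 0.49 in L3/C, with intervals of -0.75 to 1.50 and -0.28 to 1.26.

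BK channels join voltage and calcium, and were among the best measured members, with a median standard error of 0.27 over 5 genes. KCNMA1, the pore-forming subunit, read 10.75, 10.58, 10.73 and 10.26 on C, 10.74, 10.55, 10.30 and 10.35 on L, and 11.07, 9.91, 10.66 and 10.40 on L3. Its differences were -0.09 in L/C (-0.61 to 0.43), -0.07 in L3/C (-0.59 to 0.46) and 0.02 in L3/L (-0.50 to 0.55). These intervals, at the brightest probe set, lie within a 2-fold difference in either direction. So do those of KCNMB4 (-0.43 to 0.38 in L/C and -0.23 to 0.59 in L3/C). The 4 probe sets of KCNMA1 ran from -0.28 to 0.68 in L/C and from -0.18 to 0.50 in L3/C. Over the 3 of KCNMB4 the L3/C range was -0.75 to 0.18. At its brightest, KCNMB4 gave 0.18 in L3/C, -0.08 without further normalization and -0.25 with centred arrays. KCNMB2, an inactivating beta subunit, gave 0.14 and -0.20. KCNMB1, the beta subunit of smooth muscle, had 1 L3 array at 6.30 and the others at 9.24 to 9.46, so its L3/C difference of -0.63 (-1.82 to 0.55) rests on L3 replicate 3 and was 0.14 without it. The 3 measured SK and IK subunits, calcium-gated channels of the afterhyperpolarization, lay between -0.30 and 0.17 in L/C and between -0.17 and 0.08 in L3/C. KCNN3 gave -0.30 in L/C and KCNN4 -0.17 in L3/C.

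The sodium-activated channels KCNT1 and KCNT2 give a slow afterhyperpolarization. KCNT2 read 10.17, 9.68, 10.13 and 9.21 on C, 9.27, 10.38, 9.07 and 9.51 on L, and 11.41, 10.32, 9.97 and 9.78 on L3. L3 replicate 1 was the highest of all 12 arrays, and L replicate 2 lay within the L3 range. The L3/L difference was 0.81 (0.03 to 1.60), at an unadjusted limma p of 0.043 and an adjusted p of 0.89115, and the exact permutation p was 0.143 (two-sided, n = 4 and 4). It was 0.47 without L3 replicate 1, 0.60 without further normalization and 0.39 with centred arrays, none of which reached an unadjusted p under 0.05. The L3/C difference was 0.57 (-0.21 to 1.36) at the brightest probe set and 1.41 at the other. KCNT1 gave 0.06 in L/C and 0.16 in L3/C (-0.52 to 0.84).

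**Figure D3:**
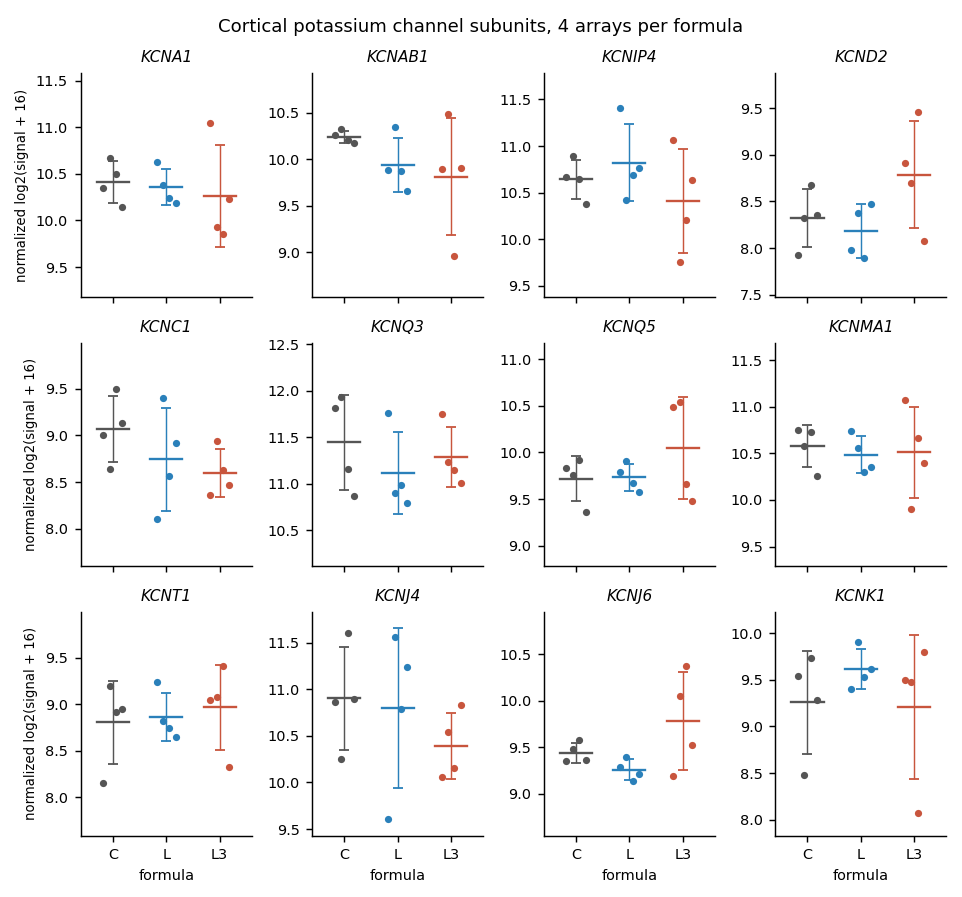
Normalized log2(signal + 16) of 12 subunits with known roles in cortex, by formula. Points are arrays (4 per formula), horizontal lines means and bars SDs. The formulas overlap in every panel, and KCNAB1 is tight in C (10.18 to 10.32) and wide in L3 (8.96 to 10.48).

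Inward rectifiers hold the resting potential, and in cortex they include G protein-gated channels of neurons and the potassium-buffering channels of astrocytes. Of 13 measured, 4 were higher in L/C with a median of -0.17, and 8 were higher in L3/C with a median of 0.26. The latter median was 0.06 with centred arrays. KCNJ6, the G protein-gated subunit GIRK2, read 9.35, 9.48, 9.58 and 9.36 on C, 9.29, 9.39, 9.14 and 9.22 on L, and 9.20, 10.05, 10.37 and 9.53 on L3. The 8 C and L arrays lay between 9.14 and 9.58, and L3 replicates 2 and 3 stood above them. The difference was -0.18 in L/C (-0.75 to 0.39), 0.34 in L3/C (-0.23 to 0.91) and 0.52 in L3/L (-0.05 to 1.10). With centred arrays the last 2 values were 0.06 and 0.20. The second probe set of KCNJ6 gave 0.63 in L3/C and 0.81 in L3/L. Its partner KCNJ9 (GIRK3), with the smallest p of the family in L/C, gave -0.47 in L/C and -0.49 in L3/C (-1.36 to 0.37), but its second probe set gave 0.41 and 0.03. KCNJ5 (GIRK4), another G protein-gated subunit, named after its values were seen, gave 0.23 in L/C and -0.14 in L3/C. Its 6 probe sets spanned -0.69 to 0.78 for L3/C. KCNJ4, a strong rectifier of forebrain neurons, read 10.86, 10.25, 11.61 and 10.90 on C, 9.61, 11.56, 10.79 and 11.24 on L, and 10.05, 10.54, 10.16 and 10.83 on L3. Its L3/C difference was -0.51 (-1.30 to 0.27). The second probe set of KCNJ4 gave 0.62 in L/C, -0.79 in L3/C and -1.41 in L3/L.

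KCNJ10 and KCNJ16 form the astrocytic channel. KCNJ10 ranged from 6.85 to 9.06 on C, 6.65 to 9.01 on L and 7.07 to 8.59 on L3. Its differences were 0.14 in L/C (-1.06 to 1.34) and 0.29 in L3/C (-0.91 to 1.49). The second probe set of KCNJ10 gave 1.40 in L/C, 0.41 in L3/C and -0.99 in L3/L, where the brightest gave 0.15. KCNJ16 had the smallest p of the family in L3/C, at 0.92 (-0.42 to 2.27), gave 0.51 in L/C (-0.83 to 1.85), and its second probe set gave 1.43 in L3/C. The 6 astrocyte markers measured had a median of 0.11 in L/C. Their L3/C median was 0.19, with 5 of 6 higher (2 of 6 with centred arrays), and summed signals of 20785 to 33073 on C, 22486 to 32568 on L and 21916 to 38443 on L3. Their part in the KCNJ16 value was not tested.

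Two-pore channels are the background potassium conductances. Of 14 measured, 8 were higher in L/C (median 0.13), 5 in L3/C (-0.07) and 3 in L3/L (-0.39), the last count being 6 without further normalization. KCNK9, the acid-sensitive TASK subunit, read 8.33, 9.06, 9.14 and 7.34 on C, 8.59, 6.94, 7.63 and 8.09 on L, and 8.67, 5.67, 5.74 and 7.89 on L3. L3 replicates 1 and 4 lay within the C range, and replicates 2 and 3 below all C and L arrays. The L3/C difference was -1.48 (-2.87 to -0.08) at an unadjusted limma p of 0.039 and an adjusted p of 0.99917, and the exact permutation p was 0.2 (two-sided, n = 4 and 4). Its second probe set gave -0.11, and the mean of both -0.80. KCNK2, the mechano- and lipid-gated TREK channel that polyunsaturated fatty acids are known to open, read 7.01, 7.96, 7.63 and 7.56 on C, 5.90, 7.89, 7.17 and 7.23 on L, and 5.84, 5.34, 7.86 and 6.82 on L3. Its differences were -0.49 in L/C (-1.75 to 0.76) and -1.07 in L3/C (-2.33 to 0.18), and the groups overlapped. KCNK1, a weakly rectifying channel of neurons and astrocytes, gave 0.35 in L/C and -0.05 in L3/C (-0.83 to 0.73). Its 4 probe sets ran from -0.96 to 0.35 in L/C and from -0.62 to -0.05 in L3/C. KCNK5 had the smallest p of the family in L/C, at 1.12 (-0.23 to 2.47). KCNK12, which is shown for its size and was chosen after its values were seen, ran from 4.46 to 10.17 on the L3 arrays alone, with an L3/C difference of -1.51 (-3.66 to 0.65).

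KCNK13 encodes the two-pore channel known for setting the resting potential of microglia. It read 7.22, 5.27, 8.04 and 6.31 on C, 7.91, 7.47, 7.09 and 7.55 on L, and 5.50, 5.72, 6.63 and 6.46 on L3. All 4 L3 arrays lay below all 4 L arrays, and the C arrays spanned both. The L3/L difference was -1.42 (-2.65 to -0.19), with an unadjusted limma p of 0.026, an adjusted p of 0.89115 and an exact permutation p of 0.0286 (two-sided, n = 4 and 4). Among all genes 1.13% were lower with no overlap in L3/L, beside 1 of 85 members (1.18%), and 1.4% were higher, beside 0 members. The microglia markers, 6 of 6 measured, had medians of 0.53 in L/C and -0.67 in L3/L, with 6 of 6 higher in L/C and 5 of 6 lower in L3/L. Their summed signals were 1519 to 3671 on C, 1751 to 6158 on L and 1728 to 3626 on L3, and none of them was at 0. KCNK13 gave 0.79 in L/C. The part of microglia in the KCNK13 value was not tested.

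Beyond KCNC2 and KCNK13, groups did not overlap for KCNQ1DN in L3/C and for KCNK15, a two-pore subunit with little known current, in L/C. KCNQ1DN read 6.12, 6.80, 7.16 and 6.06 on C, 8.72, 8.07, 6.41 and 6.75 on L, and 7.63, 8.40, 7.57 and 7.25 on L3. Its L3/C difference was 1.18 (0.02 to 2.34), at an unadjusted limma p of 0.047, an adjusted p of 0.99917 and an exact permutation p of 0.0286 (two-sided, n = 4 and 4). It was 0.74 among females. The males of group C had its lowest values, and the male of group L read 8.07. Higher with no overlap in L3/C were 0.946% of all genes, beside 1 of 85 members. KCNK15 was dim, at 4.96 to 5.25 on C and 5.40 to 5.99 on L, with an L/C difference of 0.52 (-0.26 to 1.31), and its deposited signals did overlap before normalization. In L/C 0.875% of all genes were higher with no overlap and 1.21% lower. Of the members 1 was higher and 0 were lower in that comparison.

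**Figure D4:**
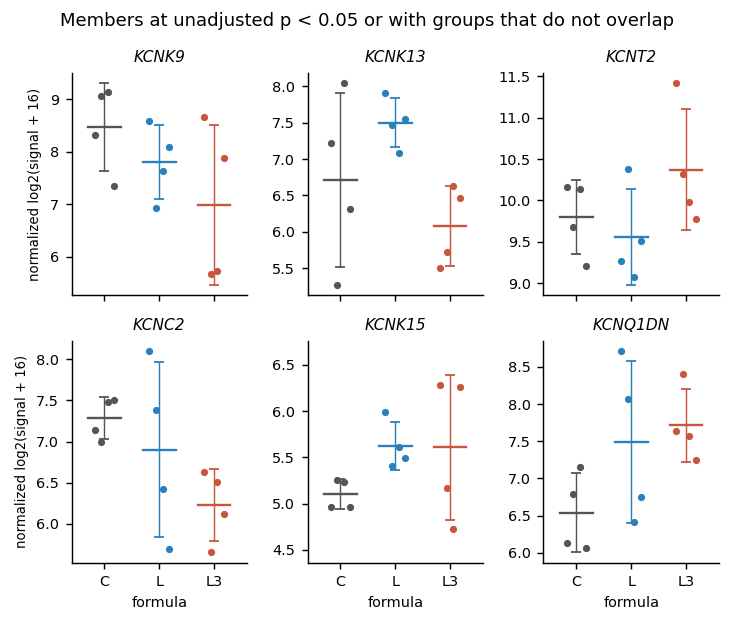
Normalized log2(signal + 16) by formula for the 6 members at an unadjusted p under 0.05 or with formulas that do not overlap. Points are arrays (4 per formula), lines means and bars SDs. KCNK13 has all L3 arrays (5.50 to 6.63) below all L arrays (7.09 to 7.91), and KCNK9 has 2 L3 arrays near 5.7 and 2 at C level.

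The study names KCNK3, a TASK channel, and KCNH7, an ERG channel, among its ion channel transcripts. It reports both as lower in L/C and higher in L3/C. KCNK3 has 3 probe sets. The one the study used read 7.72, 7.68, 7.79 and 7.85 on C, 7.58, 7.41, 7.30 and 7.63 on L, and 8.12, 7.56, 8.20 and 7.96 on L3. All 4 L arrays lay below all 4 C arrays, with an exact permutation p of 0.0286 (two-sided, n = 4 and 4). The study had selected its probe sets by p-value in the same animals, so this p is not independent of that choice. Of all probe sets, 1.17% were lower with no overlap in L/C. The L/C difference was -0.28 (-1.01 to 0.46) with a limma adjusted p of 0.99998, and L3/C was 0.20 (-0.53 to 0.94). At the brightest KCNK3 probe set the differences were 0.16 (-1.17 to 1.49) and 0.12 (-1.21 to 1.45), and at the remaining one -0.24 and -0.75. The probe set that the study called KCNH7 carries no symbol in the annotation used here and is no member. It gave -0.52 in L/C (-1.78 to 0.75) and 0.60 in L3/C (-0.67 to 1.86), with L3 arrays from 5.91 to 8.47. The brightest annotated KCNH7 probe set read 7.81 to 8.60 on C, 7.96 to 8.44 on L and 8.21 to 8.84 on L3. It gave -0.07 in L/C (-0.75 to 0.61) and 0.25 in L3/C (-0.43 to 0.93). The other annotated KCNH7 probe set gave -0.25 in L/C and 0.75 in L3/C.

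Probe sets of the same gene often differed in sign. Of the 48 genes with several, 16 had probe sets of 1 sign in L/C, 21 in L3/C and 21 in L3/L. For the 27 genes with exactly 2 probe sets, these counts were 13, 17 and 16. Of all 168 member probe sets, 0 were at an unadjusted p under 0.05 in L/C, 6 (3.57%) in L3/C and 7 (4.17%) in L3/L, beside 2.42%, 4.26% and 5.4% of all probe sets. KCNV1 gave 0.50 at its brightest probe set and -1.13 at the other in L3/C, and KCNQ3 gave -0.16, -0.67 and 0.79 at its 3. KCNAB1 was lower in L3/C at all 5 of its probe sets, from -1.07 to -0.23, while in L/C only the brightest was lower. KCNQ5 was higher in L3/C at both of its probe sets.

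**Figure D5:**
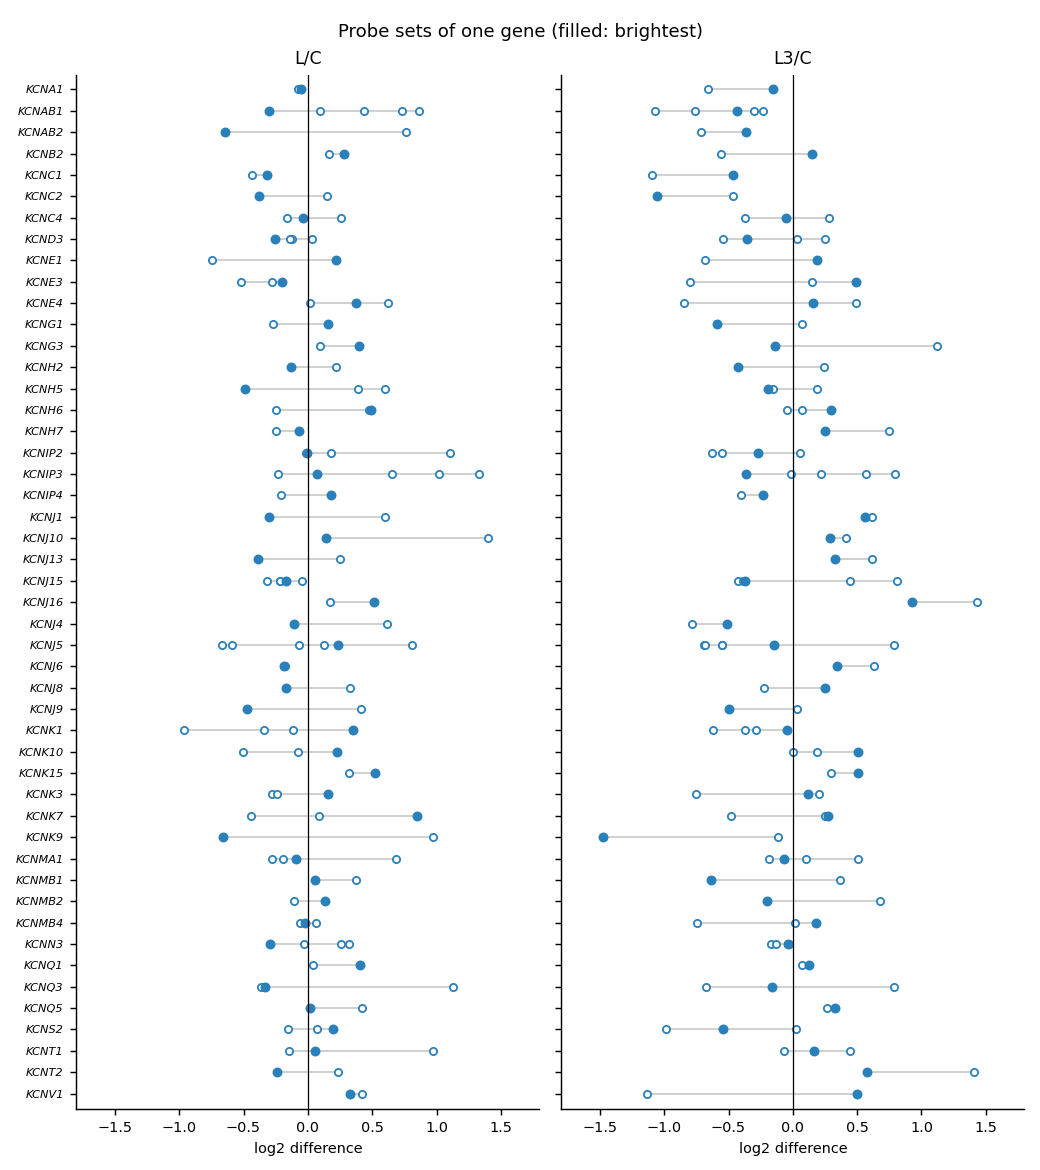
Log2 difference in L/C (left) and L3/C (right) at each probe set of the 48 genes with several. Filled points are the brightest probe sets, open points the others, and lines join the lowest and the highest. In 16 rows on the left and 21 on the right all points lie on 1 side of 0.

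Proteins that traffic, anchor or modulate these channels were measured for 28 of 30 listed genes. Of these 10 were higher and 18 lower in L/C (median -0.07), 14 and 14 in L3/C (median -0.001), and 0 were at an unadjusted p under 0.05 in either. The L3/C counts were 9 and 19 without further normalization. In L3/L, 3 partners (10.7%) were at an unadjusted p under 0.05, beside 5.06% of all genes, 1 of them higher, and 0 passed after adjustment. DLG2, a scaffold of Kv1 and inward rectifier channels, gave 0.51. CNTN2, which gathers Kv1 channels beside the node, gave -1.20 in L3/L and 1.03 in L/C. All 4 of its L3 arrays lay below all 4 L arrays, as for 1.13% of all genes. LRRC52, a gamma subunit of BK-type channels, gave -1.10. The Kv4 partners DPP6 and DPP10 gave 0.04 and 0.29 in L/C with -0.07 and 0.03 in L3/C. The axonal organizer CNTNAP2 gave -0.41 and 0.04. Of the pumps and carriers that move potassium across the membrane, 7 of 12 listed were measured and 0 were at an unadjusted p under 0.05 in any comparison. In L3/C 5 were higher, or 2 without further normalization and with centred arrays. The potassium-chloride carriers SLC12A4 and SLC12A7 had the largest differences of the 7, at 1.17 in L/C (SE 0.59) and -0.90 in L3/C (SE 0.44). The sodium pump subunit ATP1B1 gave -0.13 in L/C (SE 0.21) and 0.06 in L3/C, and the potassium-chloride carrier SLC12A5 gave 0.06 and 0.13 (SE 0.18).

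Channels of the choroid plexus were looked at because its markers differed between arrays. All 4 of 4 measured choroid plexus markers were higher in L3/C (median 0.76) and in L3/L (median 0.96), or 3 of 4 with centred arrays, with summed signals of 953 to 1713 on C, 814 to 1293 on L and 981 to 3060 on L3. KCNJ13 and KCNE2, potassium channel genes of that epithelium named after their values were seen, gave 0.33 and -0.32 in L3/C and 0.72 and -0.66 in L3/L. The part of choroid plexus tissue in these values was not tested.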

How the data were processed

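The deposited values are MAS5 signals, which the authors computed with the GCOS software as linear intensities scaled per array. The trimmed mean lay between 250.01 and 250.02 on every array and median signals ran from 108.8 to 174. The study's methods describe RMA values, which the deposited files do not hold. Here 62 control probe sets were left out, log2(signal + 16) was quantile normalized, and limma 3.58.1 (R 4.3.3) fitted a mean per formula (9 residual degrees of freedom) with a variance trend. P-values were adjusted by Benjamini-Hochberg over all 54613 probe sets. Single genes were also tested by exact two-sided permutation of 4 against 4 arrays, which cannot give a p below 0.0286. Precision is limited by the 4 arrays per formula. Symbols came from the platform annotation, in which 41091 probe sets have 1 symbol, 1801 several and 11721 none.

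Named genes are those with the smallest p of each subfamily in L/C and L3/C, those at an unadjusted p under 0.05, KCNK3 and KCNH7, and genes with known roles in cortex, 18 of 23 of which were analysed here. Members and lists were chosen with earlier results of these data known. The procedure was tested on simulated data. Alternatives were other scalings and pseudocounts, a filter on low signals, covariates, a replicate block, females alone, the mean of a gene's probe sets and leaving out each array.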

Additional observations from a re-analysis of the deposited data

Results flagged for a closer look

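In 9 of 132 groups of 4 arrays, formed by 44 named probe sets and 3 formulas, 1 array stood apart from the other 3 by a gap that exceeded Dixon's 95% critical value as a share of the group's range. Chance alone gives about 1 in 20. L replicate 1 was the array in 4 of these 9 groups. It was high for KCNH2 (9.91 against 8.70 to 8.87, gap share 0.862) and KCNK5 (7.99 against 6.74 to 6.92, 0.857). It was low for KCNK3 at the brightest probe set (6.52 against 8.79 to 9.04, 0.901) and KCNN3 (6.54 against 8.20 to 8.30, 0.944). This is also the array with the highest SD of member deviations, 1.03.

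Among the L3 arrays, replicate 1 was low for KCNE4 (5.86 against 7.97 to 8.22, gap share 0.893). L3 replicate 4 was high for KCNJ9 (9.34 against 8.72 to 8.81, 0.844). L3 replicate 3 was low for KCNMB1 (0.930). Among the C arrays, replicate 1 was high for KCNMB1 (10.01 against 8.93 to 9.07, 0.868) and replicate 2 for KCNN4 (7.94 against 6.16 to 6.26, 0.942).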

How the results depend on the processing

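The count of members at an adjusted p under 0.05 was 0 in every setting run. The counts at an unadjusted p under 0.05 were small and moved. In L/C (0 members) the count was 2 among females, 3 with age, 1 with the spike-in covariate, 1 with the ACTB 3'/5' ratio, and 0 to 1 without 1 array. In L3/C (2 members) it was 1 with sex, 1 among females, 1 with age, 4 with the mean of a gene's probe sets, and 0 to 5 without 1 array, with 0 without C replicate 1 or C replicate 2 and 5 without L3 replicate 4. In L3/L (2 members) it was 1 without further normalization, with centred arrays, with only brighter probe sets, without the variance trend, with only the 8 arrays of the pair, among females and with the spike-in covariate. It was 4 with age, 5 with the ACTB ratio, 4 with the mean of probe sets, and 1 to 6 without 1 array, with 6 without L3 replicate 4, 5 without L3 replicate 1 and 4 without L replicate 1. The F test (0 members) gave 1 with sex, 1 among females, 3 with age, 1 with the spike-in covariate, 1 with the ACTB ratio, 3 with the mean of probe sets and 0 to 2 without 1 array. Median differences were -0.25 in L3/C and -0.27 in L3/L with centred arrays. The cause of these moves was not tested.

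With the replicate block the counts were 0 in L/C, 3 in L3/C and 2 in L3/L and the medians stayed at -0.03, -0.10 and -0.10. Correlations of the 12 same-numbered pairs ran from -0.09 to 0.06 for numbers 2 and 3 and from 0.14 to 0.33 for numbers 1 and 4, and 6 of 12 arrays correlated best with an array of their own number. In each formula the ACTB ratio fell at every step from replicate 1 to replicate 4. It went from 3.59 to -0.03 on C, from 3.45 to -0.15 on L and from 6.18 to 0.17 on L3. Arrays of some numbers thus deviated together, as a hint from the data, but not every pair did and the labels give no shared source, so the fit without the block was kept. What the numbers share was not tested.

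Over all settings the difference ran from 0.74 to 1.39 for KCNQ1DN and from -2.11 to -0.80 for KCNK9 in L3/C, and from 0.39 to 1.09 for KCNT2 and from -2.01 to -1.23 for KCNK13 in L3/L. Of 44 named probe sets, 27 had the other sign in at least 1 setting in L/C, 19 in L3/C and 26 in L3/L.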
